A study of Oryza sativa with 6 samples.

Results

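The genes described here are rice probe sets whose signal was high on the replicate 3 array of both genotypes of a stem base experiment. The members were selected on the replicate 3 signal itself. A probe set was taken when its geometric mean signal over the 6 arrays was at least 50 and its replicate 3 signal was at least 3 times the geometric mean of replicates 1 and 2, in WT and in crl1 alike. The clock gene CCA1, which meets the rule, was left out. This gave 123 members among the 57258 probe sets of the array that are not controls, or among the 19039 that reached a mean of 50. With CCA1, the rule was met by 0.651% of the latter, and 0.352% (67 probe sets) met its mirror image and were low in replicate 3 of both genotypes.

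The arrays measured RNA of stem bases, the zone of the rice seedling in which crown roots are formed. The study compared WT seedlings of the cultivar Taichung 65 with seedlings of crl1 (crownrootless1), a mutant that forms no crown roots because it lacks the function of CRL1, a transcription factor of the AS2/LOB family. Both genotypes were 7 days old and had grown on plates of half-strength Murashige and Skoog medium at 26 °C under 12 h of light and 12 h of dark, and the labels give no treatment. Each genotype has 3 arrays, numbered 1 to 3, and the study calls these independent biological replicates, each a pool of stem bases. No probe set was matched to CRL1 itself in the probe table, in which 34727 probe sets have no gene. Whether 1 of these measures CRL1 is not known, so the mutation was not checked here. In a pooled tissue, fewer cells of a type and less RNA per cell cannot be told apart.

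Many plant transcripts move with the time of day, with light, with sugar supply and with water, heat or nutrient stress, in groups of genes that serve the same process. Genes of carbon metabolism respond to sugars and light, dehydrins and other late embryogenesis abundant (LEA) proteins accumulate under abscisic acid and drought, and some heat shock factors switch on chaperone genes. Genes for the synthesis of nicotianamine-derived iron chelators respond to iron supply.

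The values are MAS5 signals, a fluorescence summary per probe set that the authors scaled to the same target on every array. Over the probe sets with a mean of at least 50, WT replicates 1 to 3 had median signals of 195, 191 and 204, and crl1 replicates 1 to 3 of 197, 191 and 200.0. The replicate 3 arrays nevertheless stood apart in technical values. Their highest signals were 5201 (WT) and 5761 (crl1), whereas the 4 other arrays reached 15946 to 18869. For the actin control, the 3′ signal over the 5′ signal came to 3.06, 3.06 and 1.59 in replicates 1 to 3 of WT and to 3.06, 3.34 and 1.53 in those of crl1. GAPDH gave 3.94, 3.23 and 1.77 for WT and 3.32, 3.54 and 1.77 for crl1. Ubiquitin shifted the other way, with 0.568, 0.514 and 0.735 for WT and 0.560, 0.578 and 0.797 for crl1. Cyclophilin showed no common shift, with 2.77, 2.76 and 2.37 in WT and 2.16, 2.05 and 2.51 in crl1. Of the 50 control probe sets with a mean of at least 50, 0 met the rule for members, and the largest smaller step among them was 2.01-fold. The controls were not level, however. That step belonged to a probe set of the dap spike-in, with 84.8, 94.8 and 181 in WT and 94.9, 86.1 and 199 in crl1. A brighter probe set, of the cre spike-in, was lower in replicate 3, with 7536, 6937 and 3978 in WT and 7092, 7650 and 4347 in crl1. A bioB probe set stayed near level, with steps of 1.03-fold in WT and 1.04-fold in crl1. Some controls under a mean of 50 moved further. A dap probe set stepped 2.56-fold in WT and 2.52-fold in crl1. A lys probe set (5.08- and 4.10-fold) and a phe probe set (15.2- and 6.88-fold) passed 3-fold in both genotypes. The 28S ribosomal RNA control fell, to 0.107- and 0.185-fold. The lys and phe signals were low, and MAS5 measures low signals poorly. The part of these differences between arrays in the members' values was not tested.

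**Figure D1:**
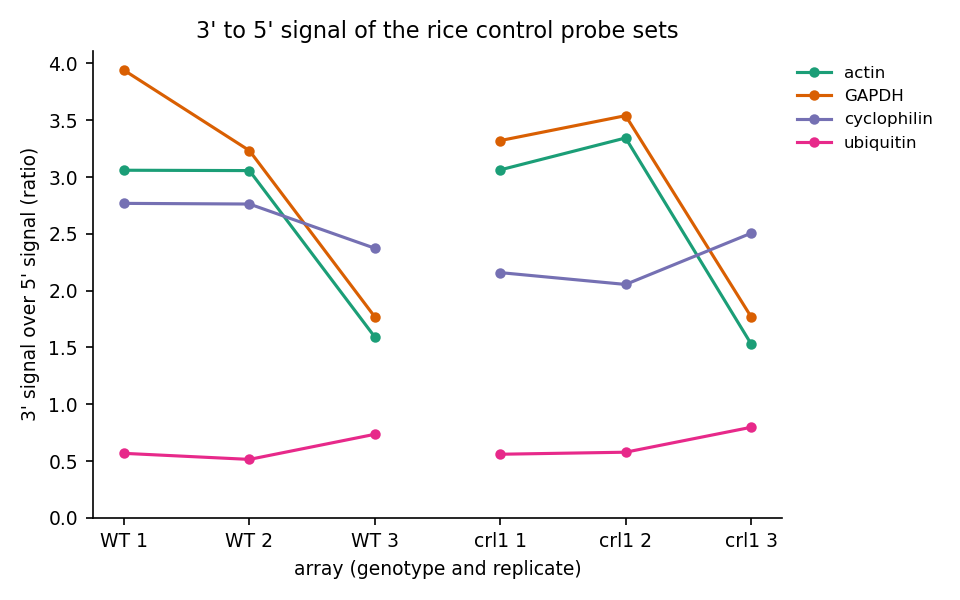
Ratio of 3′ to 5′ signal (vertical axis, from 0) of 4 rice control genes on each of the 6 arrays (horizontal axis), 1 point per array. The actin and GAPDH ratios were 1.53 to 1.77 on the replicate 3 arrays and 3.06 to 3.94 on the others.

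The members were dim in replicates 1 and 2 and of middling signal in replicate 3. The median member had a signal of 70.5 in replicate 1, 62.3 in replicate 2 and 352 in replicate 3 of WT, and of 83.9, 55.6 and 309 in the same replicates of crl1. Among the probe sets with a mean of at least 50, the median member stood at percentile 12.2, 9.21 and 68.8 in WT and 18.0, 5.61 and 64.9 in crl1. The rule chose on these values, so they are a description and carry no test. Both replicate 3 signals were above the 4 other signals in 123 of 123 members, beside 21.7% of all probe sets with a mean of at least 50. In 108 members the lower replicate 3 signal was at least 2-fold above the highest of the 4 others. Low signals are measured poorly by MAS5, and 6 members had a signal under 20 in replicate 1 or 2 of either genotype.

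**Figure D2:**
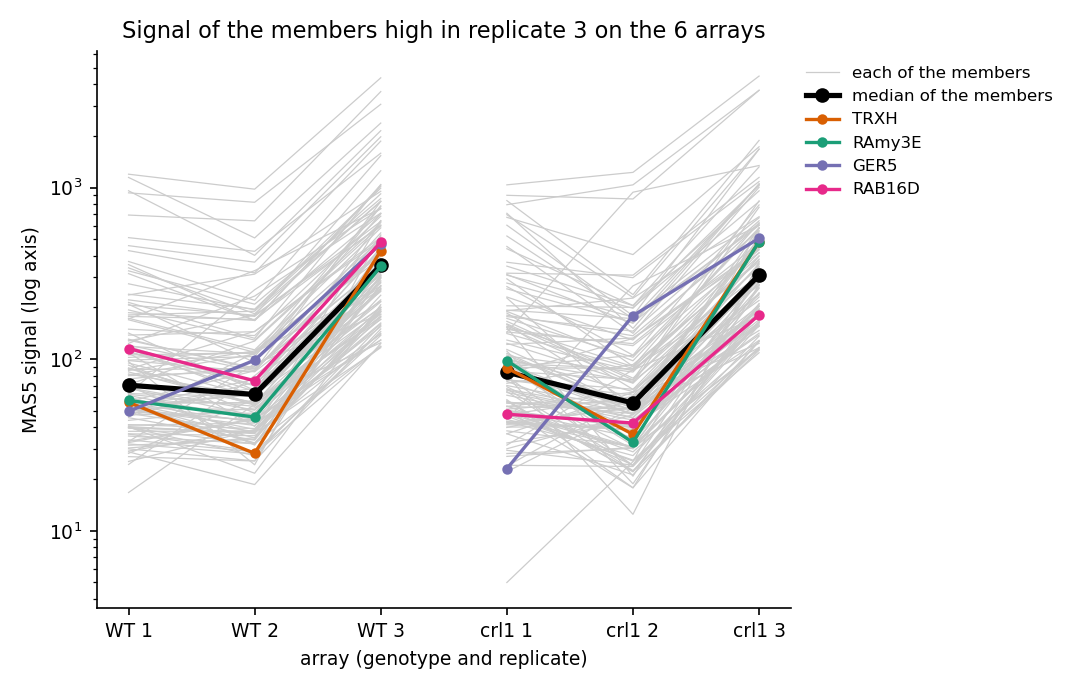
MAS5 signal (log axis) of the 123 members on the 6 arrays, 1 grey line per member and genotype, with the median of the members in black and TRXH, RAmy3E, GER5 and RAB16D in colour. The median member lies at 55.6 to 83.9 in replicates 1 and 2 and at 352 and 309 in replicate 3. GER5 differs most between crl1 replicates 1 and 2 among the coloured genes, with 23 and 179.

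The step of replicate 3 over the geometric mean of replicates 1 and 2, averaged over the genotypes on the log2 scale, had a median of 4.24-fold and ran from 3.08- to 31.4-fold. It was at least 5-fold in 37 members and at least 8-fold in 5. By genotype its median was 4.40-fold in WT and 3.99-fold in crl1. The step was larger in WT in 82 members (66.7%, beside 51.6% of all probe sets with a mean of at least 50) and larger in crl1 in 41. In 96 members the steps of the genotypes were within 1.5-fold of each other, and in 6 they were more than 2-fold apart. Of these 6, LOC4324704 (12.3-fold in WT, 3.39-fold in crl1) and LOC4324857 (10.9-fold and 3.50-fold) had the larger step in WT. LOC4348336 (19.1-fold in WT, 51.6-fold in crl1) and LOC9270227 (4.39-fold and 10.4-fold) had the larger step in crl1, and the other 2 are probe sets with no gene in the probe table. Taken 1 genotype at a time, 216 probe sets passed 3-fold in WT and 180 in crl1, and those past it in both made up 57.4% of the first list and 68.9% of the second. Past the limit in both genotypes, 124 probe sets were high and 67 low, a share of high ones of 64.9%. Centring each array on its median moved the median step of all probe sets from -0.02 to 0.31 on the log2 scale, and the counts past the limit to 282 high and 39 low, a share of high ones of 87.9%, over the same probe sets. With the signal minimum applied to the centred signals too and CCA1 left out, 288 probe sets met the rule, all 123 members among them.

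**Figure D3:**
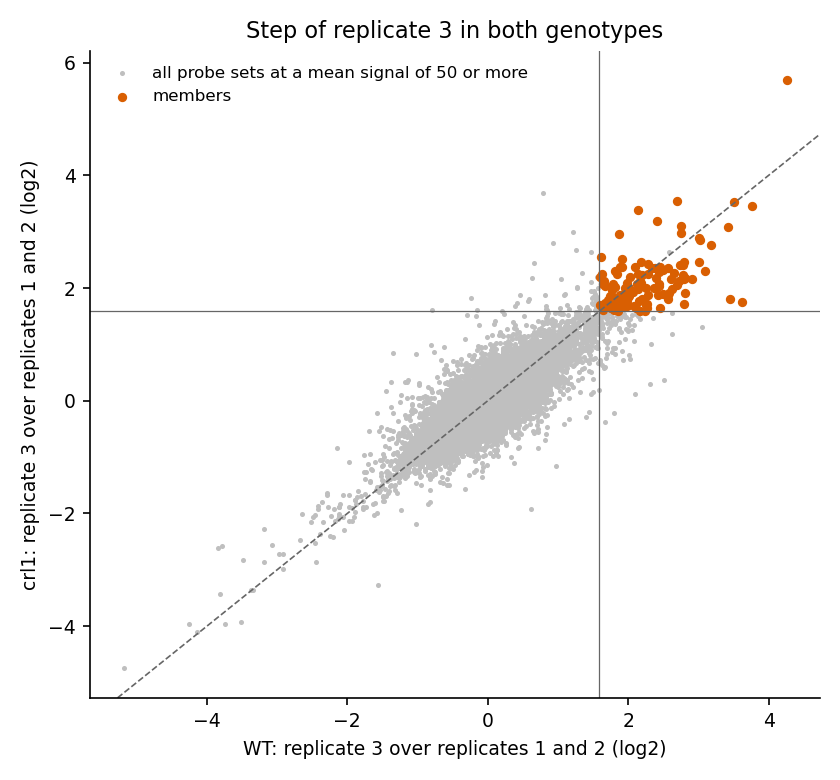
Step of replicate 3 over replicates 1 and 2 in WT (horizontal, log2) and in crl1 (vertical, log2), with the 19039 probe sets with a mean of at least 50 in grey and the 123 members in orange. The solid lines are the 3-fold limits, the dashed line marks equal steps, and 1 grey point past both limits is CCA1, which was left out. LOC4348336 is the member farthest to the upper right, at 19.1-fold in WT and 51.6-fold in crl1.

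The limits cut through a continuous range of values. Just inside the fold limit were LOC4330678, whose smaller step was 3.01-fold, LOC4348368 with 3.02-fold and LOC4341355 with 3.03-fold. Just outside were LOC4341866 with 2.99-fold, LOC4330475 with 2.98-fold and LOC4351693 with 2.98-fold. At the signal minimum, a probe set with no gene (mean 50.3) and LOC9269069 (51.1) were inside. LOC4326913 was outside with a mean of 48.3 although its steps were 16.5-fold in WT and 16.3-fold in crl1, and so was LOC4328240 (47.8).

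Of the 123 members, 95 have 1 gene in the probe table and 28 have none, and the 95 stand for 87 genes. An informative name exists for 17 of these genes (18 probe sets), and the other 70 carry a locus number only. Of the members, 29 are probe sets that may cross-hybridise to related transcripts by their design (suffix _x_at or _s_at), among them those of RAmy3E, SAT1, LEA19 and 1 of the 2 of rca.

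Genes of carbon metabolism and of the chloroplast made up the first group. The signals of each gene are given in the order of replicates 1, 2 and 3. RAmy3E, an alpha-amylase that breaks down starch, gave 57.5, 46.0 and 347 in WT and 98.0, 32.7 and 485 in crl1. SWEET15, a sugar exporter of the plasma membrane, had 85.9, 112 and 387 in WT and 156, 90.4 and 379 in crl1. In both genes the 2 replicate 3 signals were above all others, with mean steps of 7.60- and 3.55-fold. CFBP1, the cytosolic fructose-1,6-bisphosphatase on the path to sucrose, had 40.3, 21.6 and 207 in WT and 36.7, 21.2 and 126 in crl1. Its step was larger in WT (7.02-fold) than in crl1 (4.53-fold). PSAG, a subunit of photosystem I, had 119, 70.4 and 430 in WT and 166, 77.5 and 344 in crl1. Its step was also the larger in WT, at 4.70-fold against 3.03-fold, but a dimmer probe set of PSAG was lowest in replicate 3 of both genotypes. The gene rca encodes rubisco activase, which keeps the carbon-fixing enzyme of photosynthesis active, and 2 of its probe sets were members. The probe set of type _a_at had 275, 194 and 919 in WT and 180.4, 137 and 561 in crl1. That of type _x_at had 511, 425 and 1586 in WT and 367, 298 and 1084 in crl1. On both, each crl1 signal was below the WT signal of the same replicate.

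Genes known from abscisic acid, drought and heat formed the second group. RAB16D, a dehydrin induced by abscisic acid, stood at 115, 74.8 and 481 in WT and at 47.8, 42.4 and 181 in crl1. Its crl1 replicate 3 signal was 1.57-fold above the highest of the 4 signals of replicates 1 and 2, the narrowest gap among the named members. LEA19, a late embryogenesis abundant protein, had 124, 233 and 710 in WT and 294, 90.8 and 624 in crl1. Its replicates 1 and 2 stood in opposite order in the 2 genotypes. PM19L, a membrane protein of the AWPM-19 family, had 39.7, 32.1 and 196 in WT and 47.8, 25.5 and 109 in crl1. Hox22, a homeodomain-leucine zipper transcription factor, had 44.0, 51.9 and 176 in WT and 57.0, 22.1 and 185 in crl1. Replicate 3 was highest in both, with a step of 5.48-fold in WT and 3.12-fold in crl1 for PM19L and of 3.68- and 5.21-fold for Hox22. HSFB2A, a class B heat shock factor, had 32.6, 44.6 and 140 in WT and 42.7, 51.9 and 147 in crl1. It was among the named members with the smallest mean step, 3.38-fold.

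The third group held enzymes of nutrient and cofactor metabolism and a redox protein. TRXH, a thioredoxin h that reduces disulphide bonds in the cytosol, stood at 56.0, 28.2 and 428 in WT and at 88.8, 36.5 and 483 in crl1. This was the largest mean step of a named gene, 9.55-fold, but a brighter probe set of the same gene was lowest in replicate 3. NAAT1, the nicotianamine aminotransferase of the synthesis of iron chelators, had 115, 61.0 and 300.0 in WT and 85.5, 47.5 and 305 in crl1. SAT1, a serine acetyltransferase that makes the precursor of cysteine, had 194, 129 and 624 in WT and 190, 97.9 and 579 in crl1. PDX12, of the PDX1 family of vitamin B6 synthesis, had 239, 196 and 992 in WT and 312, 162 and 1050 in crl1. In these 3 genes replicate 1 was above replicate 2 in both genotypes, and the ratio of crl1 to WT in replicate 3 was 1.02, 0.927 and 1.06.

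Cell surface and signalling genes were the last group of named members. GER5, a germin-like protein of the cell wall, stood at 49.6, 98.6 and 470 in WT and at 23, 179 and 506 in crl1. It was the named member with the widest spread between replicates 1 and 2, and replicate 2 was the higher in both genotypes. The lipid transfer protein gene nsLTP2 had 16.7, 54.6 and 170 in WT and 32.5, 42.8 and 138 in crl1, again with replicate 2 above replicate 1. CIPK25, a protein kinase that acts with calcineurin B-like calcium sensors, had 131, 87.3 and 432 in WT and 161, 75.7 and 418 in crl1. Its step was 4.05-fold in WT and 3.79-fold in crl1.

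The 3 largest mean steps belonged to genes with a locus number only, and that of TRXH came after them. LOC4348336 had signals of 29.1, 38.4 and 639 in WT and of 4.99, 25.3 and 580 in crl1. LOC4327187 had 27.0, 25.5 and 356 in WT and 27.1, 30.6 and 315 in crl1. LOC4342135 had 30.4, 34.8 and 369 in WT and 29.4, 24.1 and 306 in crl1. The replicates 1 and 2 of the last 2 genes lay within 1.5-fold of each other in each genotype, whereas the step of LOC4348336 in crl1 rests on a replicate 1 signal of 4.99. LOC4350207 (60.4, 36.9 and 306 in WT and 80.1, 12.5 and 369 in crl1) and LOC4324165 (36.6, 29.1 and 295 in WT and 50.1, 35 and 284 in crl1) came next after TRXH. The highest replicate 3 signals of the module were those of LOC4326757, with 1196, 978 and 4358 in WT and 1037, 1226 and 4463 in crl1 on 1 of its probe sets, and of LOC4342551, with 691, 640 and 3624 in WT and 901, 858 and 3689 in crl1. LOC4338611, a probe set with no gene and LOC4347265 followed. A signal is a property of its probes too, so this order is not an order of transcript levels.

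Other probe sets of the same genes gave values that the choice of members did not use, although on the same arrays. Of 30 such probe sets, 13 (of 9 genes) had a mean of at least 50. Among these 13, 10 had a positive step in both genotypes and 9 had a step of at least 2-fold in both, with a median mean step of 2.41-fold. Over all probe sets with a mean of at least 50 the same shares were 38.2% and 2.46%. Of the 9, several are probe sets of 1 gene, LOC4333004, and 2 are of rca. Probe sets of 1 gene are no replicates of each other, so these are not counts of genes. The 2 other probe sets of rca had 698, 492 and 1703 in WT and 421, 360 and 1230 in crl1, and 554, 478 and 1477 in WT and 398, 346 and 1385 in crl1, thus high in replicate 3 as well. TRXH was different. Its other probe set had 5272, 5085 and 3647 in WT and 6386, 4559 and 3925 in crl1, lowest in replicate 3 of both genotypes, and the member probe set of LOC4336956 (70.5, 31.6 and 381 in WT and 152, 20.8 and 309 in crl1) was likewise opposed by a brighter one (3286, 2829 and 2164 in WT and 3043, 3106 and 2080 in crl1). Which probe set of these 2 genes follows the transcript was not tested, so neither gene has a settled direction. Among the 17 dimmer probe sets 10 had a positive step in both genotypes. That of PSAG had 31.4, 16.8 and 5.84 in WT and 27.4, 19.5 and 10.3 in crl1, lowest in replicate 3 of both. That of PM19L had 3.70, 2.37 and 0.947 in WT and 0.702, 5.92 and 1.19 in crl1, with a negative step in both. Signals this low are measured poorly, and which probe set follows the transcript was not tested. In 7 genes more than 1 probe set was a member, and in 1 of them, LOC4334638, 3 were.

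The order of replicates 1 and 2 was not part of the rule, but the geometric mean of their signals was. A low signal in either replicate makes the rule easier to meet, so the differences between them are not independent of the choice. The values below are a description and carry no test. Replicate 1 was above replicate 2 in both genotypes in 71 of the 123 members (57.7%, beside 32.0% of all probe sets with a mean of at least 50), and replicate 2 was above replicate 1 in both in 14. The median difference of the members was 0.23 on the log2 scale in WT and 0.54 in crl1, beside 0.03 and 0.01 over all. Replicate 1 was at least 2-fold above replicate 2 in 34 members in crl1 (27.6%, beside 1.59%) and in 8 members in WT (6.50%, beside 0.562%). The members are dim in these replicates, and the part of signal level in these shares was not tested. The WT and crl1 differences correlated at r = 0.443 across the members and at 0.33 across all probe sets with a mean of at least 50. PDX12, CIPK25, NAAT1, SAT1 and RAmy3E were among the named genes that ran with the majority, and GER5, nsLTP2 and HSFB2A ran against it.

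**Figure D4:**
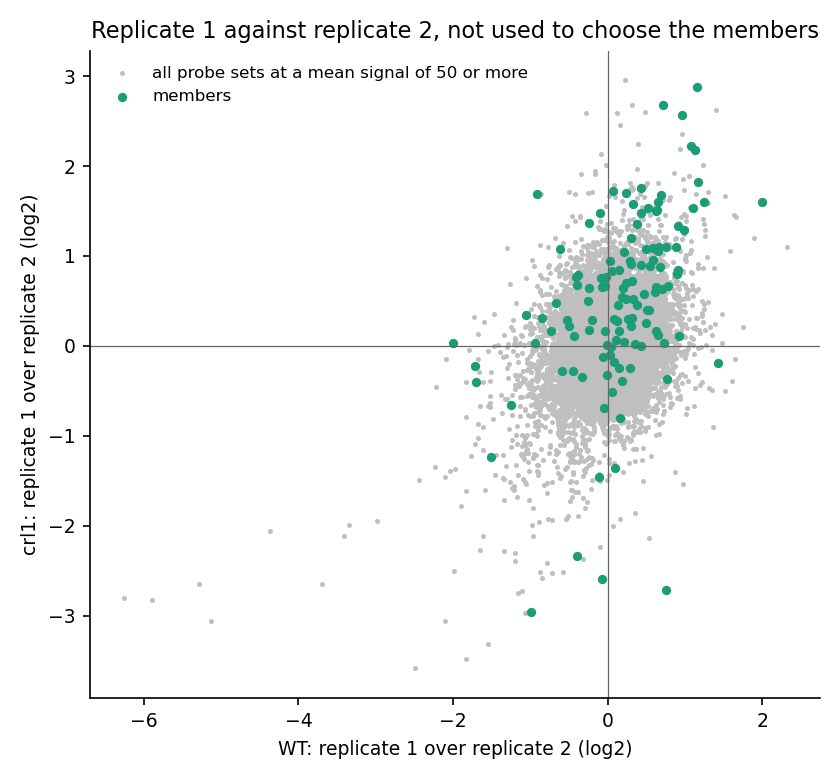
Log2 ratio of replicate 1 to replicate 2 in WT (horizontal) and in crl1 (vertical), for the 19039 probe sets with a mean of at least 50 (grey) and the 123 members (green). Of the members, 71 lie in the upper right field and 14 in the lower left. The order of the 2 replicates was not used to choose the members, but the geometric mean of their signals was.

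The comparison the study was built for, crl1 against WT within each replicate number, was not limited by the rule, which treats the genotypes alike, but the test uses the same 6 signals that chose the members. Most members showed no difference that passed the test. In limma's moderated test with the replicate number as a block, over 25045 probe sets, 3 members were lower in crl1 at an adjusted p under 0.05 (0.447% of all tested probe sets were) and 0 were higher (0.204% were). The 3 members stand for 2 genes, RAB16D and rca. Without replicate 1 the number of members lower was 6 (with LOC4338611 and LOC4327761 added), without replicate 2 it was 2, and without replicate 3 it was 0. Without replicate 2, LOC4337129 was higher (log2 fold change 0.93, adjusted p = 0.0448). At an unadjusted p under 0.05 there were 20 members lower and 11 higher, together 25.2% of the members beside 9.76% of all probe sets tested. The median log2 fold change of the members was -0.03, and 69 of 123 were negative (56.1%, beside 49.3% of all probe sets tested). The negative share of the members was 69.9% without replicate 1, 45.5% without replicate 2 and 51.2% without replicate 3. The members' median standard error was 0.18 beside 0.13 over the probe sets with a mean of at least 50. In 29 members crl1 was below WT in all 3 pairs (23.6%, beside 15.7% of all probe sets with a mean of at least 50) and in 16 above WT in all 3 (13.0%, beside 15.7%). The p-values rest on the spread of the differences within the 3 pairs of these arrays, which limma moderates with the spread of the other probe sets.

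RAB16D, with the signals given above, was lower in crl1 by 1.17 on the log2 scale (log2 fold change -1.17, SE 0.16, adjusted p = 0.0172 in limma, Benjamini-Hochberg) and was lower in 3 of 3 pairs. Without replicate 3, the replicate that chose the members, its log2 fold change was -1.04 and the call was lost (adjusted p = 0.178). The other RAB16 dehydrins did not pass the test. RAB16C had signals of 86.8, 61.2 and 144 in WT and 90.9, 25.9 and 80.9 in crl1 (log2 fold change -0.67, SE 0.24, adjusted p = 0.394). RAB16B had 78.0, 98.9 and 285 in WT and 208, 55.5 and 192 in crl1 (log2 fold change 0.01, SE 0.35). RAB21, of the same family, had 138, 103 and 326 in WT and 206, 85.9 and 116 in crl1 (log2 fold change -0.39, SE 0.30). In these 3 genes the crl1 signal was above WT in replicate 1 and below WT in replicates 2 and 3, whereas RAB16D was below WT throughout.

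The gene rca was lower in crl1 on both member probe sets, with a log2 fold change of -0.61 (SE 0.10, adjusted p = 0.0408 in limma) on the _a_at member and of -0.51 (SE 0.09, adjusted p = 0.0425) on the _x_at member. Of its 2 other probe sets, that of type _a_at gave -0.55 (SE 0.10, adjusted p = 0.0429) and that of type _x_at gave -0.34 (SE 0.10, adjusted p = 0.282). All 4 probe sets were lower in crl1 in 3 of 3 pairs. These probe sets measure 1 gene and are no replicates of each other. Without replicate 3 the adjusted p was 0.361 and 0.322 on the 2 members, with log2 fold changes of -0.55 and -0.49, and with no signal minimum it was 0.0565 and 0.0703.

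None of the 15 other named probe sets passed the test in limma, with log2 fold changes between -0.30 and 0.40 and adjusted p-values from 0.435 to 0.988. TRXH was the highest of these in crl1, with a log2 fold change of 0.40 (SE 0.16, adjusted p = 0.435) and crl1 above WT in 3 of 3 pairs. The 95% intervals of the others included 0, and the intervals of all 15 reached from -0.92 (LEA19) to 0.76 (RAmy3E), and differences up to these bounds remain possible. Among the genes with a locus number only, LOC4333528 (log2 fold change -0.55, adjusted p = 0.0592), LOC4338611 (-0.54, adjusted p = 0.0642) and LOC4352915 (0.75, adjusted p = 0.0764) came closest to the threshold. By pair, the median ratio of crl1 to WT over the members was 1.13, 0.837 and 0.897 in replicates 1, 2 and 3.

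**Figure D5:**
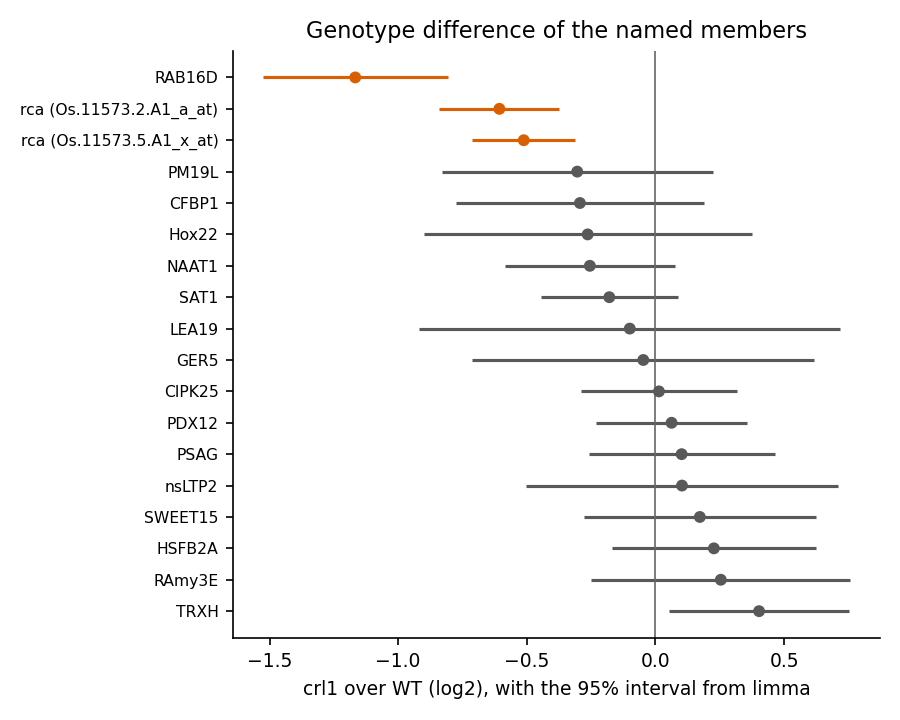
Log2 ratio of crl1 to WT with its 95% interval from limma for the 18 member probe sets with an informative gene name, ordered by the ratio, with an adjusted p under 0.05 in orange. RAB16D (-1.17) and the 2 probe sets of rca (-0.61 and -0.51) lie below 0, and 14 of the 15 other intervals include 0.

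Of the genes in 22 lists of pathways and gene families, formed by gene symbol, 12 of 796 measured were members (1.51%), beside 87 of all 12935 measured genes (0.673%). These shares are a description of the lists. The photosynthesis list held 2 members of 20 genes, PSAG and rca, and its median step was 0.02 on the log2 scale, beside -0.02 over all probe sets. Of the other 18 genes, 7 were higher in replicate 3 of both genotypes, 7 were lower in both and 4 ran in opposite directions in the genotypes. The lowest step was that of CAB2R, a chlorophyll-binding protein of the light-harvesting antenna, with 8831, 7927 and 3934 in WT and 8465, 9305 and 4074 in crl1. In the genotype test 1 of the 20 was lower in crl1, rca, and 0 were higher, while at an unadjusted p under 0.05 there were 5 of 20 lower and 0 higher, beside 9.76% of all probe sets tested in either direction.

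The heat shock list held 1 member, HSFB2A, of 32 genes, and 7 of the 32 had a step of at least 2-fold up in both genotypes (21.9%, beside 2.46% of all probe sets with a mean of at least 50) and 2 down. Its median log2 step was 0.03. Of the 31 other genes, 13 were higher in replicate 3 of both genotypes, 12 were lower in both and 6 ran in opposite directions. HSP17.9A, a small heat shock protein, was just short of the rule with 148, 178 and 553 in WT and 184, 151 and 466 in crl1. The abscisic acid, drought and cold list held 2 members of 68, RAB16D and LEA19, with a median log2 step of 0.19. The sugar and starch list held 2 of 36, RAmy3E and SWEET15, with a median log2 step of 0.05. In the iron and zinc list, 1 of 33 was a member, NAAT1, and the median log2 step was 0.08. Of the 32 other genes, 16 were higher in replicate 3 of both genotypes, 11 were lower in both and 5 ran in opposite directions. NAS1, a nicotianamine synthase that acts before NAAT1 on the same path, had 197, 154 and 402 in WT and 60.8, 29.0 and 337 in crl1. NAS2 had 387, 311 and 597 in WT and 96.4, 15.1 and 491 in crl1. Both missed the rule because their WT step was 2.31- and 1.72-fold, while their crl1 step was 8.02- and 12.9-fold. The crl1 step of NAS2 rests on a replicate 2 signal of 15.1. In the genotype test 1 gene of the abscisic acid list (RAB16D) and 1 of the iron and zinc list (VIT2, a vacuolar iron transporter gene and no member) were lower in crl1, 0 of the heat shock and the sugar and starch lists were, and 0 genes of these 4 lists were higher. At an unadjusted p under 0.05, in either direction, there were 3 of 68 genes of the abscisic acid list, 8 of 33 of the iron and zinc list, 3 of 32 of the heat shock list and 3 of 36 of the sugar and starch list, beside 9.76% of all probe sets tested.

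The remaining lists with a member held 1 each. These were CIPK25 of 59 genes of calcium and protein kinases, TRXH of 63 of redox and detoxification, nsLTP2 of 41 of secondary metabolism and lipids, and Hox22 of 91 zinc finger, homeobox and MADS factors. In the genotype test 0 genes of these 4 lists passed the threshold in limma, and at an unadjusted p under 0.05 there were 6 of 59, 4 of 63, 10 of 41 and 9 of 91 in either direction, beside the same 9.76%. The 13 lists without a member covered auxin, cytokinin and gibberellin, brassinosteroid, ethylene, jasmonate, nitrogen, phosphate, flowering and light, the cell cycle, cell walls, membrane transport, the MYB, NAC, bHLH and bZIP factors, and the clock apart from CCA1. The left-out CCA1 probe set had 370, 201 and 1634 in WT and 303, 187 and 1495 in crl1, and 5 of the 6 other clock genes measured were at least 2-fold lower in replicate 3 of both genotypes, among them GI with 1658, 1598 and 161 in WT and 1703, 1476 and 154 in crl1.

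Markers of tissues that a cut stem base could hold did not all stay level. Of the 5 green leaf markers measured, rca is a member, and their signals summed to 16357, 14227 and 10887 in WT and 14278, 15396 and 9864 in crl1, lower in replicate 3. CAB2R, the brightest of them, makes up much of that sum, and bright controls were also lower there, as the actin 3′ control with 4217, 4340 and 2219 in WT and 3785, 4953 and 2247 in crl1. The part of these lower bright signals in the sum was not tested. The 12 shoot meristem markers, of which 0 are members, summed to 5007, 4875 and 4296 in WT and 5168, 4991 and 4627 in crl1, also lowest in replicate 3. The endosperm markers GLB1 (530, 529 and 570 in WT and 551, 504 and 500.2 in crl1) and GLUA2 (80.0, 67.1 and 75.8 in WT and 60.6, 72.2 and 51.8 in crl1) were level across the replicates. The aquaporin gene PIP2-5 of the root markers had 99.7, 182 and 399 in WT and 172, 53.3 and 282 in crl1, whereas Lsi1, a silicon transporter of the root, had 971, 1021 and 689 in WT and 949, 657 and 756 in crl1. The floral gene MADS16 had 271, 259 and 531 in WT and 285, 158 and 462 in crl1. The part of cell composition in the members' values was not tested.

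The member genes lay on all 12 chromosomes, with 3 to 14 genes on each. Their share among the measured genes ran from 0.407% on chromosome 7 to 1.27% on chromosome 10. In the gene order of the reference annotation 0 pairs were adjacent and 1 pair lay within 10 places, LOC4324704 and SAT1 on chromosome 1, which are 3 places apart.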

How the data were processed

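The authors made the deposited intensities, 1 MAS5 signal per probe set on a linear scale, with the default settings of Affymetrix Expression Console (version not given in the sources used here), scaling every array globally to a target of 100. The labels gave the genotype and replicate of the 6 arrays. Of 57381 probe sets, 123 controls were left out. The genotypes were contrasted on log2 signals without a pseudocount by limma 3.58.1 under R 4.3.3, blocking on replicate number and fitting a mean-variance trend, over the 25045 probe sets with a geometric mean of at least 20, with Benjamini-Hochberg adjustment and a threshold of 0.05. The study's methods set the genotypes against each other within replicates, and deviations from the genotype mean correlated at 0.390, 0.451 and 0.747 between arrays of the same number (at most 0.232 otherwise), so the numbers pair the arrays. The number of arrays limits the precision.

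The members and lists were chosen with earlier results of these data known. Genes were named through the probe table (22436 probe sets with 1 gene, 95 with several, 34727 with none) and a rice annotation (ASM3414082v1). The members named were those with an informative symbol, called between genotypes, with the largest steps or highest signals, or at the limits. The steps, signals and genotype tests of each list gene were taken on its brightest probe set. A list gene was counted as a member when any of its probe sets was one, as for TRXH, whose brightest probe set is no member. From the lists, 10 wrong symbol matches were removed, and a defence list was not used because its symbols also matched transporters. Promoter motifs were not analysed here. Figures were drawn in Python 3.11.15 with matplotlib 3.10.9.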

Additional observations from a re-analysis of the deposited data

How the results depend on the processing

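The number of members was 467 at a fold limit of 2, 46 at 4, 159 at a signal minimum of 20, 66 at 100, 118 after quantile normalization (110 shared with the 123), 288 after median centring, 86 with a pseudocount of 16 (84 shared) and 94 without probe sets that may cross-hybridise. It ranged from 100 to 185 when replicate 2 or 1 was left out (74 and 107 shared), and cannot be formed without replicate 3. The number of members lower in crl1, 3 in the analysis as reported, was 0 with no replicate block, 0 with no trend, 1 with no signal minimum, 0 at an adjusted p under 0.01 and from 0 to 6 with a replicate left out, and the number higher was from 0 to 1 with a replicate left out. With no replicate block the step that chose the members enters the residual spread. The loss of calls was not confined to the members. Over all tested probe sets, 51 were higher and 112 lower in the analysis as reported, 1 and 4 with no replicate block, and 0 and 0 with no trend. RAB16D kept its direction and call under 7 of 10 alternatives and lost the call under 3, with adjusted p-values from 0.00902 to 1.00 in limma. The 2 probe sets of rca kept theirs under 6 and 5. The cause of these changes in the calls was not tested. The steps of 6 members rest on a signal under 20, below the minimum mean of the test.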
